A study of Sus scrofa with 44 samples.

Results

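Excitation-contraction coupling and calcium store genes were followed through pig prenatal muscle. The set is a list of 10 genes named by symbol: RYR1, CACNA1S, ATP2A1, ATP2A2, CASQ1, CASQ2, JPH1, JPH2, TRDN and STAC3. They stand among 22427 Ensembl pig genes in the expression files. A table pairing Ensembl identifiers with symbols gave 6 of the 10: CACNA1S, ATP2A1, ATP2A2, CASQ1, JPH1 and TRDN. A further 3 were reached by position, a step added after the files had been seen. Each identifier without a symbol was linked to a gene when at least 90% of its m6A peak bases lay on that gene's RefSeq exons in Sscrofa11.1. That gave 1 identifier for CASQ2 (ENSSSCG00000006745, 100% of its peak bases) and 1 for STAC3 (ENSSSCG00000029471, 100%). JPH2 had 2 identifiers: ENSSSCG00000031692 (94.6%), called here the 5′ identifier because its peaks lie in exon 1, and ENSSSCG00000007369 (97.9%), called the 3′ identifier because its peaks lie in exons 6 and 7. RYR1, which encodes the calcium release channel of the muscle store, could be matched to no identifier and was not analysed here.

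A muscle fibre turns an electrical signal into force through its inner calcium store, the sarcoplasmic reticulum. The voltage sensor in the surface membrane opens the release channel of the store, junctional proteins hold both membranes together, calsequestrin buffers calcium inside the store and a calcium pump returns it after each contraction. Several of these jobs are shared by paralogs with known fibre preferences: ATP2A1 and CASQ1 are known from fast-twitch fibres, ATP2A2 and CASQ2 from slow-twitch fibres and the heart.

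The series profiled N6-methyladenosine (m6A), a common internal RNA modification, by antibody enrichment and sequencing (MeRIP-seq). It holds 44 samples, of which 36 are longissimus dorsi, a muscle of the back, sampled at 6 prenatal stages. The stages were 33, 40, 50, 60, 70 and 95 days post coitus (E33 to E95), each with 3 input and 3 immunoprecipitated samples of rRNA-depleted RNA. The other 8 samples are PK15, an established line of pig kidney cells, and enter only through their 2 peak lists, 1 from polyA RNA and 1 from rRNA-depleted RNA. No treatment or genetic change is named for any group. The labels do not say whether the replicates of a stage came from separate fetuses or litters, so the p-values measure the spread between these samples, which may be technical.

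Levels are given as scaled TPM. TPM is transcript abundance per length, with a fixed total per library as deposited, which the scaling removes. Levels of different genes can be set side by side only roughly. The 5′ and 3′ identifiers of JPH2, linked to the same gene, had means of 172 and 27.6 scaled TPM at E95. In the 18 input libraries, 2 identifiers without a symbol took 37.8% to 67.8% of all TPM in 16 libraries, and 82.8% and 86.8% in E40 replicate 2 and E50 replicate 3. Each library was therefore divided by its median ratio to the mean library. Without this scaling, the 13334 genes tested had a median log2 change of -1.02 from E33 to E95. With it the median was -0.02, a value that the division itself brings near 0. The scaling takes the typical gene as unchanged, which was not tested. The unscaled median changes were -0.59, -0.36, 0.63, -0.27 and -0.41 over the 5 consecutive steps. TPM as deposited hold no read depth, so no counting interval can be given, and fewer muscle fibres cannot be told apart from less RNA per fibre in bulk tissue.

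The tissue label was checked against markers. The summed level of 11 skeletal muscle markers was 3973 to 4512 scaled TPM at E33 and 24106 to 33660 at E95. The summed level of 5 cardiac markers never exceeded 4.03 scaled TPM, 3 of the 5 stayed under 1 in all 18 libraries, and NPPB was at 0 in every one. This bears on CASQ2 and ATP2A2, which are also heart genes. The identifier named MYH6 was left out of the cardiac list, since 100% of its peak bases lie on RefSeq exons of MYH7, the slow skeletal and cardiac myosin.

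The deposited peak lists place m6A within the coding part of most of these genes. The stretches below are coding cores common to the listed peaks of a site, 1 each for JPH1, JPH2, TRDN, CASQ2 and STAC3 from sites in all 6 muscle lists, and for contrast the site of ATP2A1 listed only at E70 and E95. They come from the RefSeq genome Sscrofa11.1, on the transcript strand, 5′ to 3′, and capitals mark GGAC, the core of the common m6A sequence context. JPH1 lies in exon 2 (chr4:61636006-61636276, plus strand), JPH2 in exon 1 (chr17:46664561-46664753, minus strand) and TRDN in exon 8 (chr1:39304141-39304277, plus strand). CASQ2 lies in exon 12 (chr4:104982672-104982852, plus strand), STAC3 in exon 3 (chr5:22554489-22554666, minus strand) and ATP2A1 in exon 23 (chr3:18567233-18567289, plus strand).
JPH1: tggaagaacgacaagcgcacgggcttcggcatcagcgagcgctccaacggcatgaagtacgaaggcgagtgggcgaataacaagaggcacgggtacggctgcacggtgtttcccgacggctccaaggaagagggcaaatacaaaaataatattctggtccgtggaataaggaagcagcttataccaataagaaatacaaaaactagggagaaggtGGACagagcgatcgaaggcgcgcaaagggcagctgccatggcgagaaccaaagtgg
JPH2: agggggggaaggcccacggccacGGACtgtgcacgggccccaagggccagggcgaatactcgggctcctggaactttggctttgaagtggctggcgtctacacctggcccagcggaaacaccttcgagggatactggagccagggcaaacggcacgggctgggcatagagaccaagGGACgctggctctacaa
TRDN: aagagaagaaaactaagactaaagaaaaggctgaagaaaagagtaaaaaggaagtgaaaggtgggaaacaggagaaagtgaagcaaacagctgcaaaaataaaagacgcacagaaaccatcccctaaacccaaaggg
CASQ2: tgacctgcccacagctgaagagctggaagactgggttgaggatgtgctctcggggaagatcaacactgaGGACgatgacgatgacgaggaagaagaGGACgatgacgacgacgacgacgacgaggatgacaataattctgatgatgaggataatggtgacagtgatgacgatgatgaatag
STAC3: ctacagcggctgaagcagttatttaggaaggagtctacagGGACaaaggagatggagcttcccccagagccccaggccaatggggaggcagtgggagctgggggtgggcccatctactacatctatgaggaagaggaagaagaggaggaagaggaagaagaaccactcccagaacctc
ATP2A1: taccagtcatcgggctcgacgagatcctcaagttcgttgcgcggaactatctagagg

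GGAC was searched on the transcript strand, its reverse complement GTCC on the other strand, and GGACT, which contains GGAC, on the transcript strand. The CASQ2 and JPH2 stretches each hold 2 GGAC, JPH1 and STAC3 hold 1 each, and TRDN and ATP2A1 hold 0. Among these stretches GGACT occurs 1 time, in JPH2. The stretches are only parts of the peaks. Whole peaks hold 1 to 2 GGACT at the JPH2 exon 1 site and 0 to 1 at the TRDN coding site. Among sites not printed, the JPH1 5′ UTR and STAC3 3′ UTR peaks hold 1 each, and the ATP2A2 5′ end peaks 0 to 1. Of all deposited muscle peaks of sufficient length, cut to a central window of the length in question, 82.5% hold a GGAC at the JPH1 length, 73.6% at the JPH2 length, 71.5% at the CASQ2 length, 71.2% at the STAC3 length, 63.6% at the TRDN length and 36.3% at the ATP2A1 length. GGACT is in 28.8% of windows of the JPH2 length. GTCC occurs 1 time in JPH1, against 57.4% of windows of that length, and 0 times in the other stretches shown. A further 4 such cores were read and are not printed, being second sites of a gene shown or, in CACNA1S, a site missing from 1 list. The core of JPH1 in exon 4, listed at all 6 stages, holds 0 GGAC and 4 GTCC, against 79.4% and 52.9% of windows of its length. That of JPH2 in exon 6, also listed at all 6, holds 2 GGAC and 1 GTCC, against 51.1% and 24.3%. The CACNA1S core in exon 16 and the 20 coding bases common to the ATP2A1 peaks near the start codon hold neither, against 49.3% and 13.9% of windows with a GGAC. The CASQ2 stretch runs to the stop codon and is a different kind of sequence from the rest. Of its 60 whole codons, 38 (63.3%) are GAA, GAG, GAC or GAT, the codons of glutamate and aspartate, against 26.9% over the whole CASQ2 coding sequence. It encodes the acidic tail with which calsequestrin is known to bind calcium. The STAC3 stretch holds 18 such codons of 59 (30.5%), against 17.0% over its coding sequence.

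Every gene of the set that could be measured was higher at E95 than at E33 after scaling. All 6 members matched by symbol rose in limma's moderated test, with a p under 0.05 after Benjamini-Hochberg adjustment over 13334 genes. In the background, 46.2% of all genes passed this test, and 21.7% passed it upward. All 4 identifiers matched by position rose as well, and all E95 libraries lay above all E33 libraries for each of the 10 identifiers, against 26.3% of genes. The median log2 change was 2.12 over the 6 members and 1.59 over the 4 identifiers, against -0.02 over all genes. With TPM as deposited, where the median of all genes lies at -1.02, 3 of the 6 members passed the test upward (ATP2A1, CASQ1 and TRDN) and 1 of the 4 identifiers (STAC3), against 2.64% of genes upward and 48.5% in either direction. ATP2A2 and both JPH2 identifiers turned negative there, at -0.20, -0.11 (5′) and -0.42 (3′), without passing the test. Across the 6 stages, limma's moderated F test passed all 6 members and all 4 identifiers, against 47.0% of genes; with TPM as deposited it passed 3 of the 6 members, against 20.1%.

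**Figure D1:**
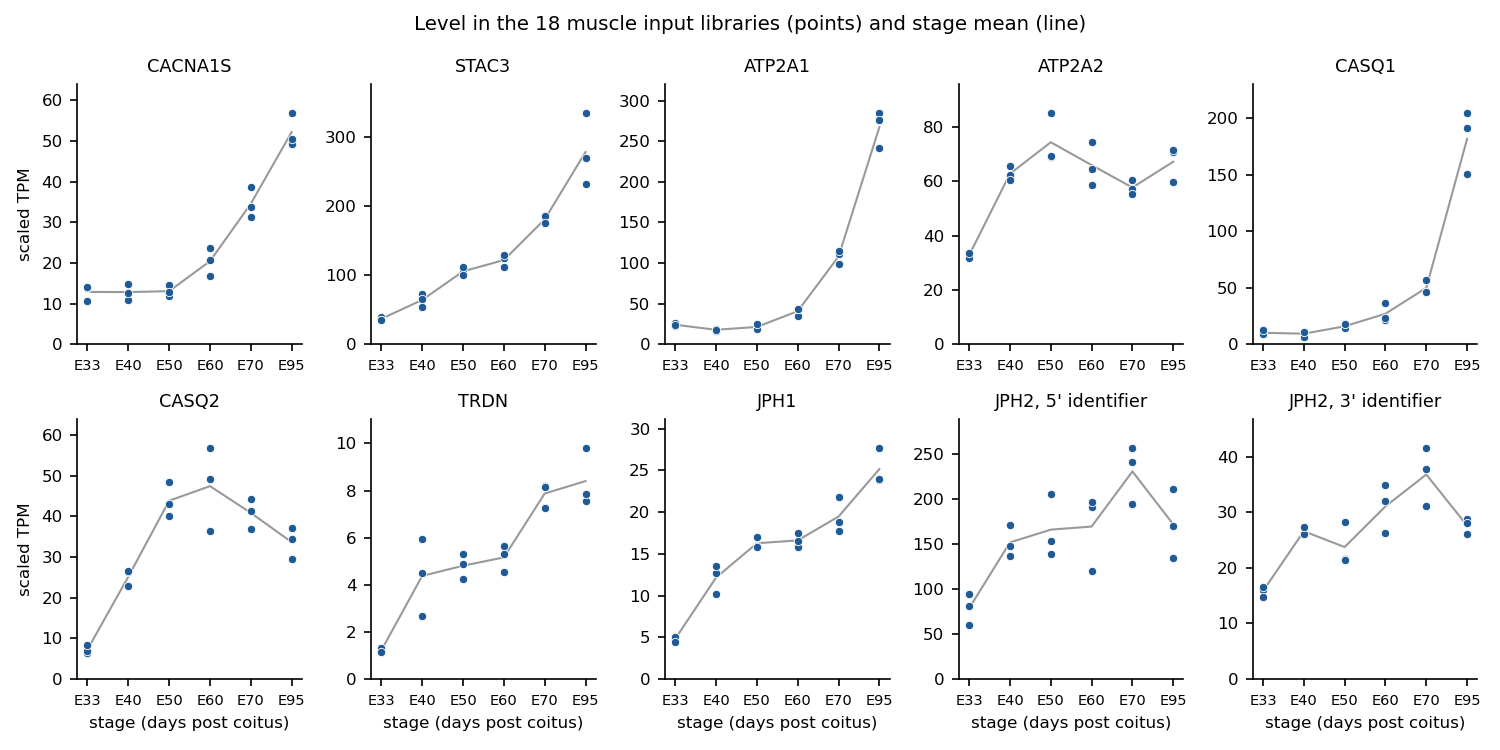
Level in scaled TPM (vertical axes, each from 0) by stage for the 10 identifiers; points are the 3 input libraries of a stage and the line joins the stage means. CACNA1S, ATP2A1 and CASQ1 stay low to E50 and are highest at E95, while ATP2A2, CASQ2 and both JPH2 identifiers have risen by E40 and do not have their highest mean at E95.

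CACNA1S encodes the pore and voltage sensor of the skeletal muscle L-type calcium channel. Its scaled TPM was 13.8, 10.8 and 14.1 in the 3 libraries of E33, 14.8, 10.95 and 12.7 at E40, and 14.5, 11.9 and 12.8 at E50. It was 16.9, 20.8 and 23.6 at E60, 38.7, 31.3 and 33.7 at E70, and 49.3, 50.5 and 56.8 at E95. The first 3 stages overlapped one another, and each later stage lay above all libraries of the stage before. The log2 change from E33 to E95 was 1.94 ± 0.14 (SE), a 3.85-fold rise (limma, adjusted p = 6.18e-08, n = 3 per stage). With TPM as deposited it was 0.76 (adjusted p = 0.192).

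STAC3 encodes the adaptor that the voltage sensor needs to reach the junction and to signal to the release channel. Mean levels in scaled TPM were 36.9 ± 2.40 (E33, SD, n = 3), 64.3 ± 9.63 (E40), 106 ± 6.20 (E50), 122 ± 9.40 (E60), 181 ± 5.01 (E70) and 279 ± 52.2 (E95). These were the highest means among the genes with a single identifier at every stage, though libraries overlapped those of ATP2A2 at E40 and of ATP2A1 at E95. Its libraries at E95 read 232, 335 and 270, all above the 35.2 to 39.6 of E33, and only E50 and E60 overlapped among neighbouring stages. The rise to E95 was 7.31-fold (log2 2.87 ± 0.13, limma adjusted p = 6.08e-10), and 1.65 on the log2 scale with TPM as deposited (adjusted p = 0.0114). The identifier named R3HDM2 also lists the STAC3 peak stretch, with 49.0% of its peak bases on STAC3 exons, so reads of both could be split between them and the STAC3 level is uncertain to that extent.

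ATP2A1 encodes SERCA1, the calcium pump of fast fibres. Scaled TPM was 26.1, 22.3 and 23.6 at E33, 19.3, 16.9 and 17.3 at E40, 20.6, 18.6 and 24.7 at E50, and 34.7, 43.6 and 43.9 at E60. It then reached 111, 98.4 and 115 at E70 and 242, 284 and 276 at E95. The gene dipped before it climbed: all E40 libraries lay below all E33 libraries, E50 overlapped both, and each stage from E60 on lay above every earlier library. From E33 to E95 the rise was 10.7-fold (log2 3.42 ± 0.12, limma adjusted p = 6.37e-11), with a log2 change of 2.21 as deposited (adjusted p = 0.00133).

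ATP2A2 encodes SERCA2, the pump of slow fibres, the heart and, in another splice form, most other cells. It had 32.7, 31.8 and 33.7 scaled TPM at E33, and 65.6, 62.2 and 60.5 at E40. Stage means from E40 to E95 lay between 57.7 ± 2.65 (E70) and 74.4 ± 9.22 (E50), and in the order of the means E70, E40, E60, E95 and E50 each neighbour overlapped the next. All E50 libraries (68.9 to 85.0) nevertheless lay above all E40 and all E70 libraries. The E40 to E50 change did not pass the test (limma adjusted p = 0.346). The largest step was from E33 to E40, with the E33 libraries below all others. The E33 to E95 rise was 2.02-fold after scaling (log2 1.01 ± 0.11, limma adjusted p = 2.67e-06) but -0.20 on the log2 scale with TPM as deposited (adjusted p = 0.740).

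CASQ1 encodes the main calsequestrin of fast fibres, which holds calcium inside the store. Its libraries read 8.64, 9.23 and 12.6 scaled TPM at E33, 10.7, 6.78 and 10.6 at E40, and 14.8, 14.6 and 18.3 at E50. They read 21.8, 23.2 and 36.3 at E60, 46.7, 46.2 and 56.9 at E70, and 150, 205 and 191 at E95. E33 and E40 overlapped, and each stage from E50 on lay above all earlier libraries. CASQ1 had the largest change of the set, 16.5-fold from E33 to E95 (log2 4.04 ± 0.21, limma adjusted p = 2.14e-09), and 2.85 on the log2 scale as deposited (adjusted p = 3.75e-04).

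CASQ2 encodes the calsequestrin of slow fibres and the heart. Scaled TPM was 6.52, 6.86 and 8.47 at E33 and 26.2, 22.8 and 26.5 at E40. It was 43.1, 40.0 and 48.5 at E50, 36.5, 49.1 and 56.8 at E60, 41.2, 37.0 and 44.4 at E70, and 29.5, 34.3 and 37.1 at E95. The gene was lowest at E33, and its highest mean was at E60, where the libraries overlapped those of E50 and E70. E95 lay above E40 without overlap and overlapped E70. The rise from E33 to E95 was 4.19-fold (log2 2.07 ± 0.15, limma adjusted p = 5.48e-08) after scaling and 0.91 on the log2 scale as deposited (adjusted p = 0.129).

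TRDN encodes triadin, which anchors calsequestrin to the release channel. It was the least abundant of the set, at 1.19, 1.32 and 1.15 scaled TPM at E33 and 5.94, 2.68 and 4.51 at E40. Later means were 4.81 ± 0.540 (E50, SD, n = 3), 5.16 ± 0.572 (E60), 7.87 ± 0.524 (E70) and 8.40 ± 1.22 (E95). E33 lay below all later libraries, E40 to E60 overlapped, and E70 and E95 overlapped each other above them. The log2 change to E95, on the scale with 1 added to TPM, was 2.07 ± 0.17 (limma adjusted p = 2.36e-07), and 1.18 as deposited (adjusted p = 0.0446).

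JPH1 and JPH2 encode junctophilins, which tie the store membrane to the surface membrane; JPH1 is known from skeletal muscle and JPH2 from skeletal and heart muscle. JPH1 rose from 5.02, 5.02 and 4.42 scaled TPM at E33 to 12.7, 10.2 and 13.6 at E40 and to 23.9, 23.9 and 27.7 at E95. Its stage means in between were 16.3 ± 0.695 (E50), 16.6 ± 0.853 (E60) and 19.5 ± 2.12 (E70), and only E50 and E60 overlapped as neighbours. The log2 change to E95 was 2.17 ± 0.11 (limma adjusted p = 1.02e-09), a 4.49-fold rise, and 1.05 as deposited (adjusted p = 0.0774).

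The JPH2 identifiers differed in level, and both were lowest at E33 and highest at E70. The 5′ identifier read 60.2, 81.1 and 94.5 scaled TPM at E33, 171, 137 and 148 at E40, and 134, 212 and 170 at E95, with its highest mean, 231, at E70. The 3′ identifier read 16.1, 14.8 and 16.5 at E33, 26.3, 26.1 and 27.3 at E40, and 28.7, 26.0 and 28.0 at E95, with its highest mean, 36.8, at E70. For both, E33 lay below all later libraries, and later stages that neighbour in the order of means overlapped. All E70 libraries still lay above all E40 libraries for both. For the 3′ identifier they also lay above all of E50 and E95, though the E70 to E95 fall was not called (limma adjusted p = 0.0602). Changes to E95 were 1.12 ± 0.23 (5′, adjusted p = 0.00108) and 0.77 ± 0.13 (3′, adjusted p = 2.11e-04) in limma after scaling. They were 0.49 (adjusted p = 0.0715) and 0.16 (adjusted p = 0.426) when TPM were rescaled without the 2 most abundant genes, and negative as deposited.

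The pump and calsequestrin pairs were read as ratios within each library, which no scaling can change. ATP2A1 stood to ATP2A2 at 0.799, 0.701 and 0.700 in the E33 libraries, at 0.294, 0.272 and 0.286 at E40, and at 0.242, 0.271 and 0.357 at E50. The ratio was 0.591, 0.584 and 0.680 at E60, 1.83, 1.72 and 2.08 at E70, and 4.06, 4.03 and 3.86 at E95. ATP2A2 RNA therefore exceeded ATP2A1 RNA in all 12 libraries up to E60, and ATP2A1 RNA exceeded ATP2A2 RNA in all 6 libraries of E70 and E95. TPM per gene do not separate the splice forms of ATP2A2, so its slow-fibre form was not measured apart from that of other cells. ATP2A1 made up 44.4%, 41.2% and 41.2% of both pumps' TPM at E33, 19.5% to 26.3% at E40 and E50, and 79.4% to 80.2% at E95.

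CASQ1 stood to CASQ2 at 1.33, 1.35 and 1.49 in the E33 libraries. The ratio was 0.406, 0.298 and 0.399 at E40 and 0.344, 0.364 and 0.378 at E50. It was 0.597, 0.472 and 0.639 at E60, 1.13, 1.25 and 1.28 at E70, and 5.10, 5.95 and 5.15 at E95. CASQ1 thus exceeded CASQ2 at E33, lay below it in all 9 libraries from E40 to E60, and exceeded it again at E70 and E95. Both ratios had their low point at E40 and E50, whose libraries overlapped in each ratio. The dip came with different moves: CASQ2 rose 3.17-fold and ATP2A2 1.89-fold from E33 to E40, while CASQ1 was at 0.922-fold (limma adjusted p = 0.734) and ATP2A1 at 0.753-fold.

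From E33 to E95 the log2 ratio changed by 2.44 for ATP2A1 to ATP2A2, a 5.44-fold change, with a pooled SD between libraries of 0.0824. For CASQ1 to CASQ2 it changed by 1.96, a 3.89-fold change, with a pooled SD of 0.109. JPH1 to JPH2, taken over the mean of both JPH2 identifiers, changed by 1.30 with a pooled SD of 0.330. Its ratio was 0.131, 0.105 and 0.0796 at E33 and 0.294, 0.201 and 0.279 at E95, and the 12 libraries between ran from 0.126 to 0.216. The level of the JPH1 to JPH2 ratio depends on the JPH2 identifier used. At E95, JPH1 read 23.9, 23.9 and 27.7 scaled TPM. The 3′ identifier read 28.7, 26.0 and 28.0 there, and the 5′ identifier 134, 212 and 170. In each of these 3 ratios the exact two-sided permutation test gave p = 0.10, the smallest that 3 against 3 libraries allow, and the stages did not overlap.

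**Figure D2:**
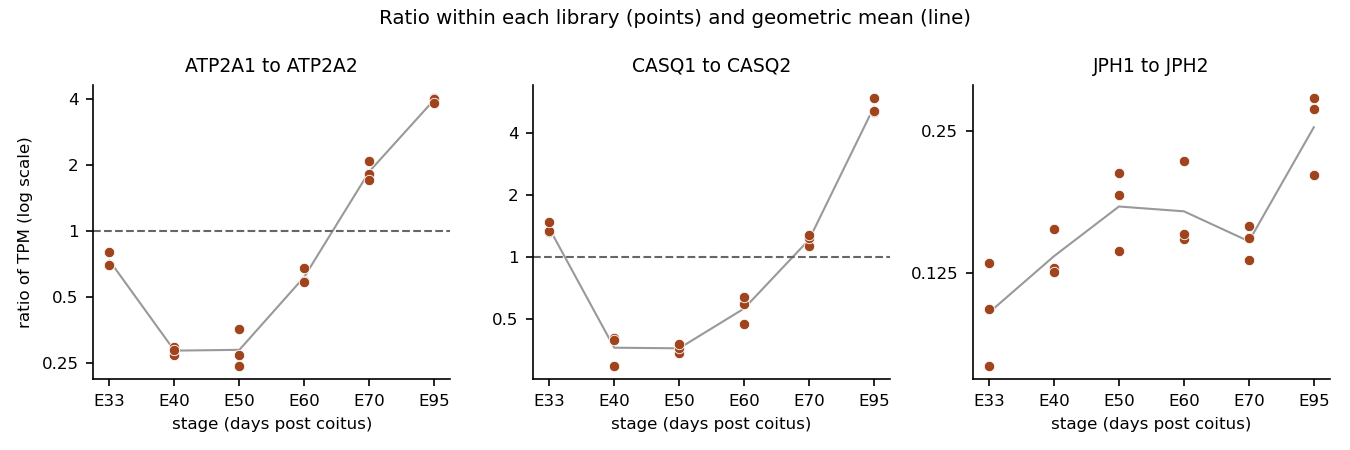
Ratio of TPM within each input library (points, log vertical axis) by stage for 3 pairs of paralogs; the line joins geometric means and the dashed line marks equal levels. ATP2A1 to ATP2A2 and CASQ1 to CASQ2 are lowest at E40 and E50 and reach 3.86 to 4.06 and 5.10 to 5.95 at E95. JPH1 to JPH2, taken over the mean of both JPH2 identifiers, does not exceed 0.294.

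Between consecutive stages the genes moved at different times. From E33 to E40, ATP2A2, JPH1 and TRDN rose and ATP2A1 fell among the 6 members, and all 4 identifiers matched by position rose. Of all genes, 20.5% passed limma's test, 10.5% upward and 9.99% downward. The log2 changes were 0.92 for ATP2A2 (adjusted p = 4.71e-05), 1.17 for JPH1 (5.42e-06) and 1.23 for TRDN (2.40e-04). CASQ2 changed by 1.66 (adjusted p = 5.37e-06), STAC3 by 0.78 (9.73e-04), and JPH2 by 0.96 (5′, 0.00986) and 0.72 (3′, 0.00151), where the 3′ value was -0.00384 with TPM as deposited. CACNA1S stayed at -0.01 (adjusted p = 0.987).

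ATP2A1 fell by 0.41 on the log2 scale from E33 to E40 (limma adjusted p = 0.0295). That call was lost without E33 replicate 1 (-0.35, adjusted p = 0.109), E33 replicate 3 (-0.42, 0.0713), E40 replicate 2 (-0.38, 0.0655) or E40 replicate 3 (-0.39, 0.0892), and with quantile normalization (-0.31, 0.108). The 5′ JPH2 call was lost without E33 replicate 1 (0.78, adjusted p = 0.0502).

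From E40 to E50, 0 of the 6 members passed limma's test (3 had an unadjusted p under 0.05), against 1.50% of all genes. CASQ1 had the largest change among them, 0.73 on the log2 scale (adjusted p = 0.118). STAC3 (0.72, adjusted p = 0.0154) and CASQ2 (0.78, 0.0217) rose. Leaving out E40 replicate 2 and E50 replicate 3, whose 2 leading identifiers took most of the TPM, gave 0.71 (adjusted p = 0.143) for STAC3 and 0.65 (0.239) for CASQ2. The STAC3 call was also lost without E40 replicate 3 (adjusted p = 0.0652), E50 replicate 1 (0.0646) or E50 replicate 3 (0.0806), and the CASQ2 call without any of the 6 libraries but E50 replicate 2 (0.0514 to 0.109). From E50 to E60, ATP2A1 was the 1 member that rose, by 0.90 (adjusted p = 0.00471), against 0.540% of all genes. Fitted on those 6 libraries alone its adjusted p was 0.231.

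From E60 to E70, ATP2A1 rose by 1.39 (adjusted p = 2.24e-05), CASQ1 by 0.89 (0.0485) and CACNA1S by 0.74 (0.0176), so that 3 of 6 members passed limma's test against 1.24% of all genes upward. Only the ATP2A1 call held without each library in turn. CACNA1S lost its call without E60 replicate 1 (adjusted p = 0.0775), E70 replicate 1 (0.0951) or E70 replicate 3 (0.0599). CASQ1 lost it without any of 5 of the 6 libraries compared, E60 replicate 3 being the exception, at adjusted p values of 0.0957 to 0.199. STAC3 rose by 0.57 (adjusted p = 0.0426), a call lost without any 1 of the 6 libraries compared.

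From E70 to E95 the members matched by symbol rose again, except ATP2A2 and TRDN, which did not pass the test. CASQ1 rose 3.58-fold (log2 1.84, adjusted p = 6.51e-05), ATP2A1 2.46-fold (1.30, 1.30e-05), CACNA1S 1.50-fold (0.58, 0.0140) and JPH1 1.28-fold (0.36, 0.0393), so that 4 of 6 members passed limma's test against 6.01% of all genes upward. STAC3 rose by 0.60 (adjusted p = 0.00711). The CACNA1S call was lost without E70 replicate 2 (0.52, adjusted p = 0.0653). The JPH1 call was lost without any of E70 replicates 2 and 3 and all 3 E95 replicates (adjusted p 0.0573 to 0.154), and its value was -0.14 with TPM as deposited. Scaled without the 2 most abundant genes, CACNA1S, CASQ1 and STAC3 from E60 to E70 and CACNA1S, JPH1 and STAC3 from E70 to E95 were no longer called (adjusted p 0.0607 to 0.691). With TPM as deposited, 0 of the 6 members and 0 of the 4 identifiers passed limma's test in any of the 5 steps, against 4.87%, 0.00750%, 0.0600%, 0.0825% and 0.285% of all genes in turn. At an unadjusted p under 0.05 there, 1, 0, 3, 1 and 1 of the 6 members passed, and 0, 0, 2, 0 and 0 of the 4 identifiers. On the scaled values CASQ2 (-0.27, adjusted p = 0.269) and JPH2 (-0.44 and -0.39, adjusted p = 0.250 and 0.0602) were not called.

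**Figure D3:**
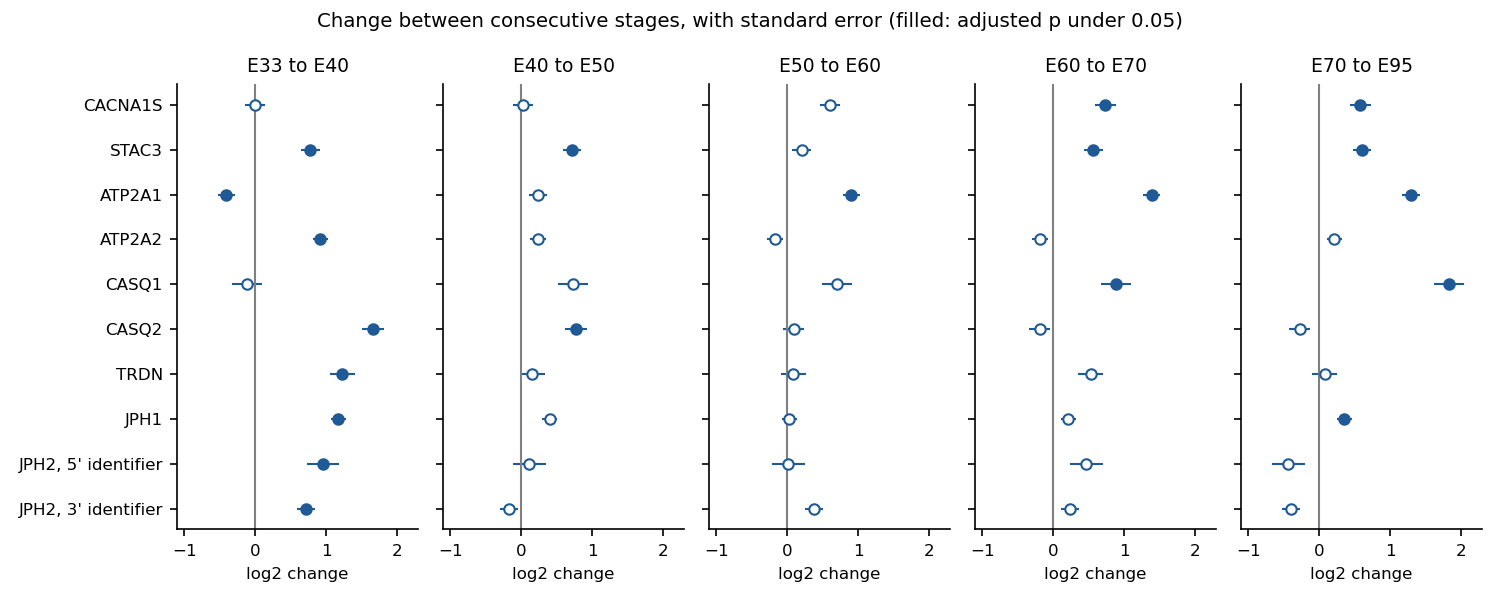
Log2 change of scaled TPM with its standard error (horizontal axis) over the 5 steps between consecutive stages for the 10 identifiers; filled points passed an adjusted p of 0.05. ATP2A2, CASQ2, TRDN, JPH1 and both JPH2 identifiers change most from E33 to E40, and ATP2A1 and CASQ1 in the 2 steps from E60 to E95. STAC3 changes most from E33 to E40 (0.78), close to its change from E40 to E50 (0.72), and CACNA1S from E60 to E70 (0.74). With TPM as deposited no point passes. Among the filled rises, the 3′ JPH2 change from E33 to E40 and the JPH1 change from E70 to E95 are then negative. Some rises without a filled point turn negative too.

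The lists of fibre-type genes moved alongside. Of 6 fast-fibre genes, 6 rose from E33 to E95, led by MYOZ1, a Z-disc protein (log2 6.93), and TNNI2, the fast troponin I (5.24), with a list median of 3.91 after scaling and 2.85 as deposited. Of 5 slow-fibre genes matched by symbol, 3 rose and 2 did not pass limma's test. The largest rises were MYL2 (2.94) and MYL3 (1.16), the slow myosin light chains. The list median was 0.73 after scaling and -0.49 as deposited. Outside these lists, genes matched by position rose too: slow MYOZ2 (1.06, -0.10 as deposited) and TPM3 (1.07, -0.15), and fast MYH4 (2.46, 1.35). The identifier named MYH6, whose peaks lie on MYH7 exons, rose by 2.27 (limma adjusted p = 8.34e-07). As deposited its change was 1.05 (adjusted p = 0.0762). The summed level of the fast list went from 705 to 766 scaled TPM at E33 to 12741 to 17727 at E95, and that of the slow list from 792 to 930 to 923 to 2006. Markers of other tissues moved too. The summed level of 5 neuronal markers was 104 to 133 scaled TPM at E33, 20.7 to 26.1 at E40 and 2.49 to 4.60 at E95, with STMN2 at 0 in 3 libraries. That of 4 endothelial markers was 16.3 to 20.8 at E33 and 60.0 to 68.7 at E95, and that of 4 cartilage markers 114 to 157 and 28.1 to 37.0. The sum of 6 connective tissue markers was 2839 to 3624 at E33 and 5733 to 8683 at E95. That of 6 smooth muscle markers was 162 to 189 and 64.8 to 114, and that of 5 erythroid markers 244 to 448 and 462 to 820. Single genes differed within the sums. In connective tissue 4 markers rose, led by COL1A1 (mean 1963 to 4538), while LUM (52.1 to 33.9) and PDGFRA (44.1 to 18.4) fell. Among erythroid markers HBB rose (233 to 610), HBZ fell (130 to 2.05) and 3 did not pass limma's test. Of 3 smooth muscle markers tested, 2 fell, among them ACTA2 (109 to 47.1). MYH11, not tested, went from 0.205 to 2.49. NEFL had a mean of 106 at E33 within the neuronal sum. The part of these other tissues in the changes of the calcium genes was not tested.

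Beyond the 10 genes, 31 other genes of the coupling machinery could be matched by symbol and tested. From E33 to E95, 21 rose, 4 fell and 6 did not pass limma's test, with a median log2 change of 1.18 against -0.02 for all genes. With TPM as deposited 7 passed upward and 7 downward, and the median was 0.01. The largest rises were SLN, sarcolipin, a small inhibitor of the calcium pump (4.89 ± 0.15, 29.7-fold), JSRP1, a junctional store protein (4.50 ± 0.28, 22.7-fold), and SCN4A, the sodium channel that carries the muscle action potential (4.47 ± 0.17, 22.1-fold). On the scale with 1 added to TPM, the largest falls were STAC2, a relative of STAC3 (-2.03 ± 0.23), and ITPR3, an inositol trisphosphate receptor (-1.58 ± 0.17). JPH4, a junctophilin known from neurons, followed (-1.40 ± 0.38). All 3 were low, with mean scaled TPM from E33 to E95 of 4.21 to 0.270, 2.04 to 0.0101 and 4.82 to 1.37. Their falls are understated on this scale, most so for ITPR3, which was close to 0 at E95. The adjusted p of JPH4 was 0.00724, and 0.0503 in a fit of the 6 libraries alone.

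Partners of the members can be read in the same list. The other voltage sensor subunits rose, with CACNG1 at 2.83, CACNG6 at 1.92, CACNB1 at 1.57 and CACNA2D1 at 0.73 on the log2 scale. As deposited they were at 1.78, 0.90, 0.37 and -0.40, and only CACNG1 passed limma's test. RYR3, a second release channel, rose by 2.31, and TMEM38A, a cation channel of the store, by 2.40. Both passed as deposited (1.50 and 1.23). RYR3 had a mean of 0.725 scaled TPM at E33, 9.66 at E70 and 7.63 at E95. The calcium entry pair ORAI1 and STIM1 rose by 1.70 and 1.21, but neither passed as deposited (0.66 and 0.16). CALR, the calcium-binding protein of the general endoplasmic reticulum, fell by 1.11, and ASPH, which also encodes junctin, was at -0.03 (adjusted p = 0.810). Of the same 31 genes, 13 rose and 1 fell from E33 to E40, and 6 rose and 3 fell from E70 to E95.

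**Figure D4:**
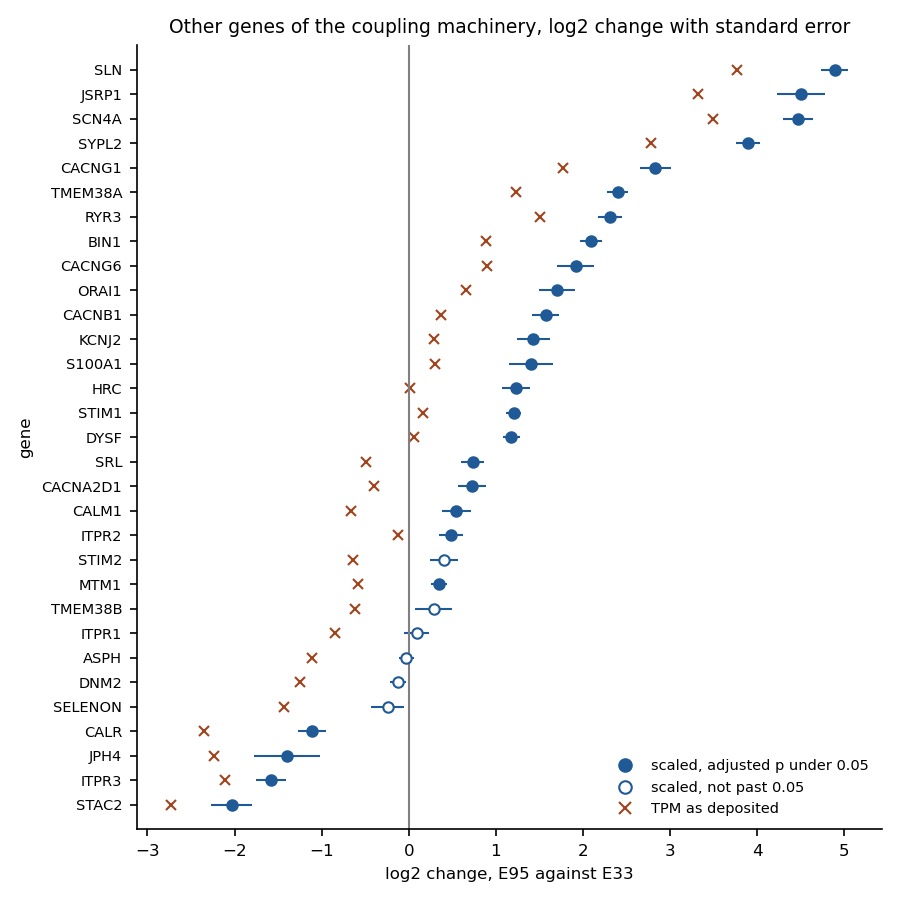
Log2 change from E33 to E95 (horizontal axis) of 31 other genes of the coupling machinery, with the standard error of the scaled fit (circles, filled where the adjusted p is under 0.05) and the value from TPM as deposited (crosses). SLN, JSRP1 and SCN4A lie highest at 4.47 to 4.89, and every cross lies left of its circle, below 0 for 15 of the genes, against 7 circles.

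Over the 18 libraries, the named genes whose log2 level ran most like that of CASQ2 were SH3BGR (Pearson r = 0.970), LIMS2 (0.965) and KY (0.961), out of 10753 tested genes with a symbol. For CACNA1S they were KLHL30 (0.983), CAVIN4 (0.976) and SLC6A13 (0.975). These are descriptions of likeness across libraries that share the same 6 stages. CACNA1S was taken because RYR1, for which the comparison was meant, could not be matched.

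m6A peaks were listed for every member that was matched. Each muscle stage has 1 deposited list with 1 fold enrichment per peak given by the authors, so the peak values have no replicates and no test. All 6 members matched by symbol had a peak in at least 1 muscle list, against 45.8% of the genes tested, and 3 of them (ATP2A1, JPH1 and TRDN) in all 6 lists, against 18.3%. The assignment is less sure for CASQ1, whose peak is also listed under PEA15. It is also less sure for ATP2A2, whose muscle peaks have at most 6.62% of their bases on the RefSeq exons used. When peaks were counted only above the median fold of their list, 3 of the 6 members remained (ATP2A1, JPH1 and TRDN), against 34.8% of the genes tested. The identifiers found by position were found through their peaks, so their having peaks is no result. No muscle peak lay on the exons of the RefSeq transcript of RYR1, while each of the other 9 genes had at least 1. In the PK15 polyA list, a peak given under the neighbouring gene ACTN4 shared 22 bases with the RYR1 exons.

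JPH1 and ATP2A1 had the most peak sites in the muscle lists, 4 each. The exon 2 site of JPH1 had a fold enrichment of 5.67, 8.07, 7.29, 4.10, 3.88 and 4.42 from E33 to E95, and its exon 4 site 4.15, 4.98, 7.33, 6.84, 6.15 and 6.25. List medians were 3.51, 4.23, 4.88, 4.06, 4.22 and 4.42, so the exon 4 site was above the median of every list. A site in the 5′ UTR was listed from E50 on (2.29, 5.45, 3.63 and 4.88), and 1 in the 3′ UTR only at E95 (1.97). JPH2 was listed at every stage too, at 7.02, 5.24, 7.39, 6.12, 5.50 and 6.36 in exon 1, above the list median each time. Its 3′ identifier had 2.46, 2.82, 2.80, 4.54, 3.47 and 2.44, above the median only at E60.

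TRDN had 1 coding peak of up to 7 blocks, spread over chr1:39257619-39339224, with a fold of 7.75, 5.42, 5.23, 3.62, 4.72 and 5.0. Only the E60 value was below its list's median. A second TRDN peak in the 5′ UTR was listed at E70 (2.04) and E95 (2.72). CASQ2 had a single site ending at its stop codon, at 3.20, 4.94, 3.60, 3.24, 3.81 and 4.20, above the median only at E40. STAC3 had 3.18, 5.19, 3.99, 2.98, 3.21 and 3.19 in exon 3, above the median only at E40, and a 3′ UTR peak only at E95 (2.36).

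Most peaks of ATP2A1, CASQ1 and CACNA1S lay below the median fold of their list. ATP2A1 had a peak around its start codon at every stage, with folds of 2.91, 2.70, 2.08, 2.52, 1.60 and 2.02, all below the list medians. A peak over its stop codon and 3′ UTR (chr3:18567233-18568156) was listed at E70, above the median with a fold of 7.11, and at E95 with 3.26, and peaks in exon 11 (2.36 and 1.62) and exon 16 (1.26, E95 only) were also listed only late. CASQ1 had 1 peak in all, in its 3′ UTR at E95 (2.48), and the same stretch is listed under the neighbouring gene PEA15. CACNA1S had a peak around exons 15 and 16 in 5 lists, at 2.66, 2.82, 2.56, 2.03 and 2.03, with none listed at E60. Whether the level of a gene decides if its peak is listed was not tested.

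ATP2A2 was listed at E33, E60, E70 and E95 with folds of 1.92, 1.50, 1.43 and 1.55, the lowest of the set in the E33, E60 and E70 lists. Those peaks lie at its 5′ end, with 0% to 6.62% of their bases on the RefSeq exons used. ATP2A2 was also the 1 gene of the set with a peak in both PK15 lists, at the same 5′ end, with folds of 19.1 in polyA RNA and 1.59 in rRNA-depleted RNA, where the list medians were 7.41 and 3.92. A second ATP2A2 peak in exon 8 was listed in PK15 polyA RNA (1.92). The only other PK15 peak of the set was listed for ATP2A1 in polyA RNA (5.63), outside its RefSeq exons. In the background 37.7% and 23.7% of all genes had a peak in the PK15 lists.

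**Figure D5:**
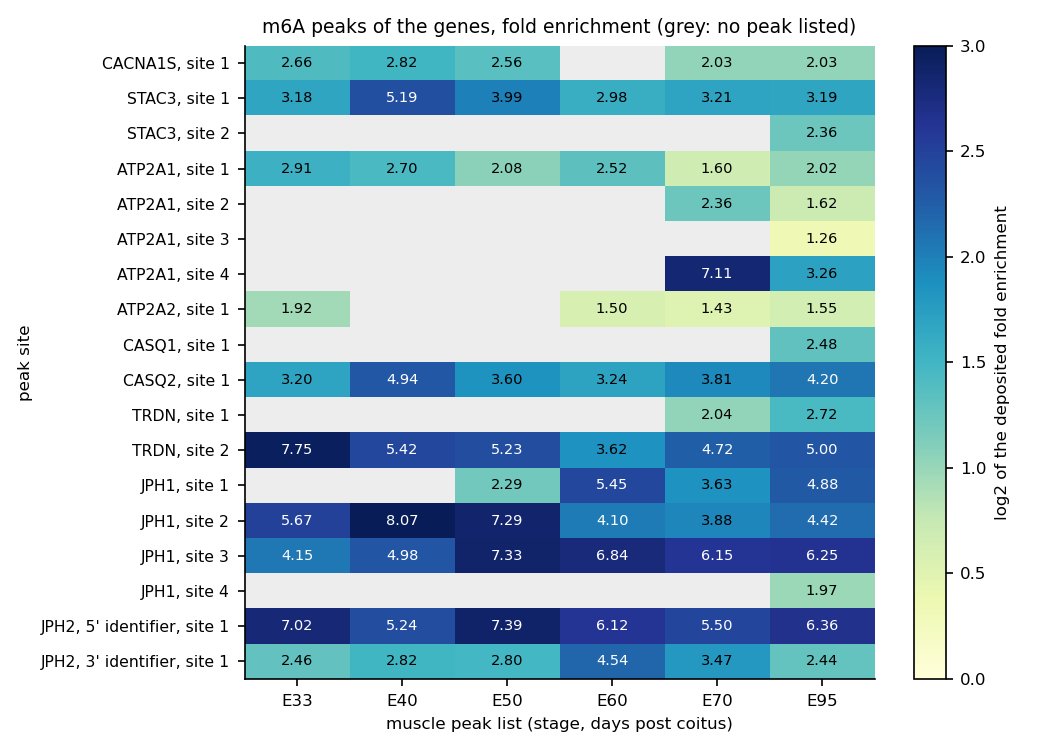
Deposited fold enrichment of each m6A peak site (rows, colour on a log2 scale, value printed) in the 6 muscle peak lists (columns); grey marks a list without a peak at the site, and sites are numbered in transcript order. JPH1, JPH2, TRDN, CASQ2, STAC3 and ATP2A1 (site 1) have a site filled in all 6 lists. The ATP2A1 sites 2 to 4 and the CASQ1 site are filled only at E70 or E95.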

How the data were processed

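Per the submitters' processing notes, reads were trimmed with Trimmomatic and handled with HISAT2, with the build Sscrofa11.1; the quantifier and the peak caller are not given in the sources used here. Per the file headers, the authors deposited TPM for each input library and, for each peak, a fold enrichment, used here as given. Whether replicates were pooled for peak calling is not stated. From the TPM, each library was divided by its median ratio to the geometric mean over the 7843 genes of at least 1 TPM in every library. log2(scaled TPM + 1) was fitted with limma 3.58.1 in R 4.3.3 (1 mean per stage, 18 libraries, trended eBayes) for 13334 genes of mean TPM of at least 1, with Benjamini-Hochberg adjustment over all of them. Fold changes understate low genes on this scale. Ratios used TPM without a pseudocount and scipy 1.17.1's exact permutation test. RefSeq models placed the peaks. The fit was tested on simulated data. Named genes are all members, the 3 largest rises and falls of the other coupling genes with groups that do not overlap, up to 2 per fibre list and the 3 most alike CASQ2 and CACNA1S; partners of the members and marker genes were named after their values were seen. The members and lists were chosen with earlier results of these data known. Alternatives were other scalings, pseudocounts, filters, fits of 6 libraries, libraries left out and a replicate block. The authors' immunoprecipitated libraries enter through the peak lists only.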

Additional observations from a re-analysis of the deposited data

How the results depend on the processing

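With TPM as deposited the members passing limma's test numbered 3 of 6 for E95 against E33 and 3 of 6 among the 6 stages, and 0 from E33 to E40, E50 to E60, E60 to E70 and E70 to E95. The other coupling genes passing then numbered 14 (7 higher) for E95 against E33 and 10 among the stages. Some log2 changes of the 10 identifiers that were called after scaling turned negative as deposited. For E95 against E33 these were ATP2A2 (-0.20), JPH2 3′ (-0.42) and JPH2 5′ (-0.11). Between consecutive stages they were JPH2 3′ from E33 to E40 (-0.00384) and JPH1 from E70 to E95 (-0.14). Changes that were not called turned negative too, such as ATP2A2 (0.21 to -0.30) and TRDN (0.08 to -0.38) from E70 to E95. Rescaling without the 2 most abundant genes left 1 member called from E60 to E70 and 2 from E70 to E95, quantile normalization 2 from E70 to E95, and fits of the 6 libraries compared 0 from E50 to E60 and 1 from E60 to E70. Apart from the deposited scale, which shifts all genes, the cause was not tested.

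Leaving out 1 library at a time gave 6 members for E95 against E33 and among the stages, 3 to 4 from E33 to E40, 0 from E40 to E50, 1 from E50 to E60, 1 to 3 from E60 to E70 and 2 to 4 from E70 to E95. The other coupling genes stayed at 25 for E95 against E33 and from 22 to 26 among the stages. Log2 ratios ran from 2.41 to 2.51 (ATP2A1 to ATP2A2), 1.89 to 2.01 (CASQ1 to CASQ2) and 1.12 to 1.48 (JPH1 to JPH2). Adding 1 TPM gave 2.41, 1.94 and 1.21, and JPH2 by its 3′ or 5′ identifier alone, chosen after seeing the data, gave 1.58 and 1.25. Counting only peaks above their list's median left 3 of 6 members with a muscle peak, against 34.8% of the genes tested.

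Deviations of same-numbered libraries correlated at -0.122 to 0.09996 (median 0.017), against -0.129 to 0.115 (median -0.003) for different numbers. Of 18 libraries, 8 correlated best with their own number. These values show no clear pairing by replicate number, but with 3 libraries per stage they cannot exclude it. With the replicate number as a block, 6 members passed for E95 against E33, and of the named log2 changes 1 lost its call (STAC3 from E60 to E70, 0.57, adjusted p = 0.0749). Depth is unknown for TPM, so the 3 libraries per stage set the precision.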
